A study of Mus musculus with 39 samples.

Results

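The genes of the aminoacyl-tRNA synthetases, the enzymes that load each amino acid onto its transfer RNA, were followed across 39 mouse lymphomas. They were taken by symbol: a single amino acid letter followed by ars, with nothing, 1 or 2 after it, plus Eprs, Farsa and Farsb. The rule found 35 of 18194 genes, 19 of them coding for cytosolic and 16 for mitochondrial enzymes (the symbols ending in 2). A cell needs a synthetase for every amino acid in each compartment that makes protein, and in mammals nearly all mitochondrial enzymes have nuclear genes of their own. Several cytosolic enzymes sit in a multisynthetase complex held together by scaffold proteins, and Gars and Kars code for both the cytosolic and the mitochondrial form. The oncoprotein Myc is known to raise ribosome and protein synthesis genes, and the transcription factor ATF4 is known to raise several cytosolic synthetase genes when amino acids are short.

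Every sample was lymphoma tissue from an animal of genotype Eµ-myc, in which Myc is driven by the enhancer of the immunoglobulin heavy chain locus, so that carriers develop tumours of the B lineage. The labels form 1 group of 39 tumours with 1 array each, give no age, treatment or control, and do not say that each tumour came from its own mouse. The p-values therefore describe the spread among these samples, part of which may be technical. Values are log2 expression levels, so a difference of 1 is a doubling, and levels of different probe sets are not set against each other. Whole tissue was profiled, in which fewer cells of a type and less RNA per cell cannot be told apart. A score averages, over the genes of a list, how far each gene lay from its mean level in log2 units. The B cell score (7 of 8 markers measured, among them Cd79a, Cd79b and Pax5) had a median of 0.47. It was lowest in tumours 23 (-3.18), 5 (-2.77), 8 (-2.56) and 6 (-2.47), and every measured marker had its lowest level among these tumours. Cd79a was lowest at 3.95 (tumour 6, highest 10.13) and Cd79b at 9.80 (tumour 5, median 12.41). Pax5 was lowest at 4.96 (tumour 23, median 7.66), Cd22 at 6.18 (tumour 23, median 10.93) and Vpreb3 at 5.48 (tumour 8). In tumour 2 the Myc level was 8.19 against 10.58 in the next lowest tumour. Its T cell score (2.76) and interferon score (3.16) were the highest and its G2/M score (-2.56) the lowest. Its B cell score was 0.19, but the markers behind that score differed. Vpreb3 was at 7.52 in tumour 2 against a median of 11.79, Cd22 was at 12.13, the highest of all tumours, and Cd79a was at 9.35 (median 9.39). The 3' minus 5' difference of the control probe sets of tumour 2, 0.105, ranked 16 of 39 from the highest. Results are given with and without this tumour.

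For 26 of the 35 genes a RefSeq promoter window (GRCm38.p6, 250 bases before to 50 after the annotated start) was at hand, and the windows were searched on both strands for the ATF4 response core TGATGNAA and the Myc E-box CACGTG. The core occurred in 5 of 12 cytosolic genes (Aars, Gars, Iars, Tars and Yars) and in 0 of 14 mitochondrial genes, against 4.51% of all genes with a window (3.97% of windows). The E-box occurred in 4 of 12 cytosolic genes (Aars, Farsb, Iars and Tars) and in 1 of 14 mitochondrial genes (Ears2), against 8.09% of all genes (7.15% of windows). The 5 windows with a core are shown because these genes are set beside the ATF4 and Myc results. They are printed 5′ to 3′ along the gene up to base 30 of the transcript, with both kinds of match in capitals. They lie at chr8:111033592-111033871 (plus strand), chr6:55037751-55038030 (plus), chr13:49681880-49682159 (plus), chr15:11399629-11399908 (minus) and chr4:129189653-129189932 (plus).
Aars: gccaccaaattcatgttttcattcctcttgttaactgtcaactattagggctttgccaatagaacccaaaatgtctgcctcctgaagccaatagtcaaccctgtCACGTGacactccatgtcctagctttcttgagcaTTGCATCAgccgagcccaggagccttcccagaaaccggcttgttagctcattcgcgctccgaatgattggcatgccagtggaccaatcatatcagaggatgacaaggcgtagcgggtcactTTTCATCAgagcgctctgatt
Gars: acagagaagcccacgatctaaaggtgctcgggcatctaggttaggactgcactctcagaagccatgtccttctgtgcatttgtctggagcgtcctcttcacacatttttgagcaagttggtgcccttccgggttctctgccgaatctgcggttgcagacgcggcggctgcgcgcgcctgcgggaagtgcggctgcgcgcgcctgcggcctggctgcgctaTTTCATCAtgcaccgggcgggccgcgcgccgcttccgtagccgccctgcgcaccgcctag
Iars: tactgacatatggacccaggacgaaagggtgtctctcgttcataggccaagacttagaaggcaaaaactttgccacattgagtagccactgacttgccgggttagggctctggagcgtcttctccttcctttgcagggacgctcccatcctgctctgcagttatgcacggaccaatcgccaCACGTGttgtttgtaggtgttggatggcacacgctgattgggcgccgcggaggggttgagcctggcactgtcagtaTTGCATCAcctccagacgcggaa
Tars: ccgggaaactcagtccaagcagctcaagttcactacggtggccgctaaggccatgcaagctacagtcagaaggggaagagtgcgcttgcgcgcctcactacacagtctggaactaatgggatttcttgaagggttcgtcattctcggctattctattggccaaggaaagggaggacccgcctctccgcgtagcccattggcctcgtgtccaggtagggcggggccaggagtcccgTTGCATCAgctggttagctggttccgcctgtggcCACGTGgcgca
Yars: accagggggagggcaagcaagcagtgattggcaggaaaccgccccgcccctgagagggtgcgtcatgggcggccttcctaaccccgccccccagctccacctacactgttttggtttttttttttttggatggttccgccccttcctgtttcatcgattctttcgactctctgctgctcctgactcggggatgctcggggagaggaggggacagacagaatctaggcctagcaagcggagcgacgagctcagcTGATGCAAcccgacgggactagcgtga

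In Aars 2 cores were found, 1 starting 112 bases before the start and the other at base 10 of the transcript, and an E-box 146 bases before the start. The core began 30 bases before the start in Gars and 15 bases before it in Tars, and at base 8 of the transcript in Iars and base 4 in Yars. Tars also carried an E-box at base 20 of the transcript, and the E-box of Iars lay 69 bases before the start. A match is a description of these letters and not evidence of binding. Cars, Hars, Hars2, Lars, Nars, Pars2, Rars, Vars and Wars had no window in the table.

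Across the 39 tumours the median SD was 0.32 for cytosolic and 0.32 for mitochondrial enzymes, as it was for all 18194 genes, and 10 of 19 and 8 of 16 lay above that value. Without tumour 2 the median SDs were 0.28 and 0.31 against 0.31 for all genes, and 3 of 19 and 9 of 16 lay above the latter. Among the 9097 genes at or above the median level, whose median SD was 0.40, 2 of 19 cytosolic and 4 of 15 mitochondrial genes lay above it. In the heat map of all members the column of tumour 2 is low in most rows of both classes. Tumour 2 had the lowest level of 13 of 19 cytosolic and 11 of 16 mitochondrial genes, whereas 16.1% of all genes were lowest there.

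**Figure D1:**
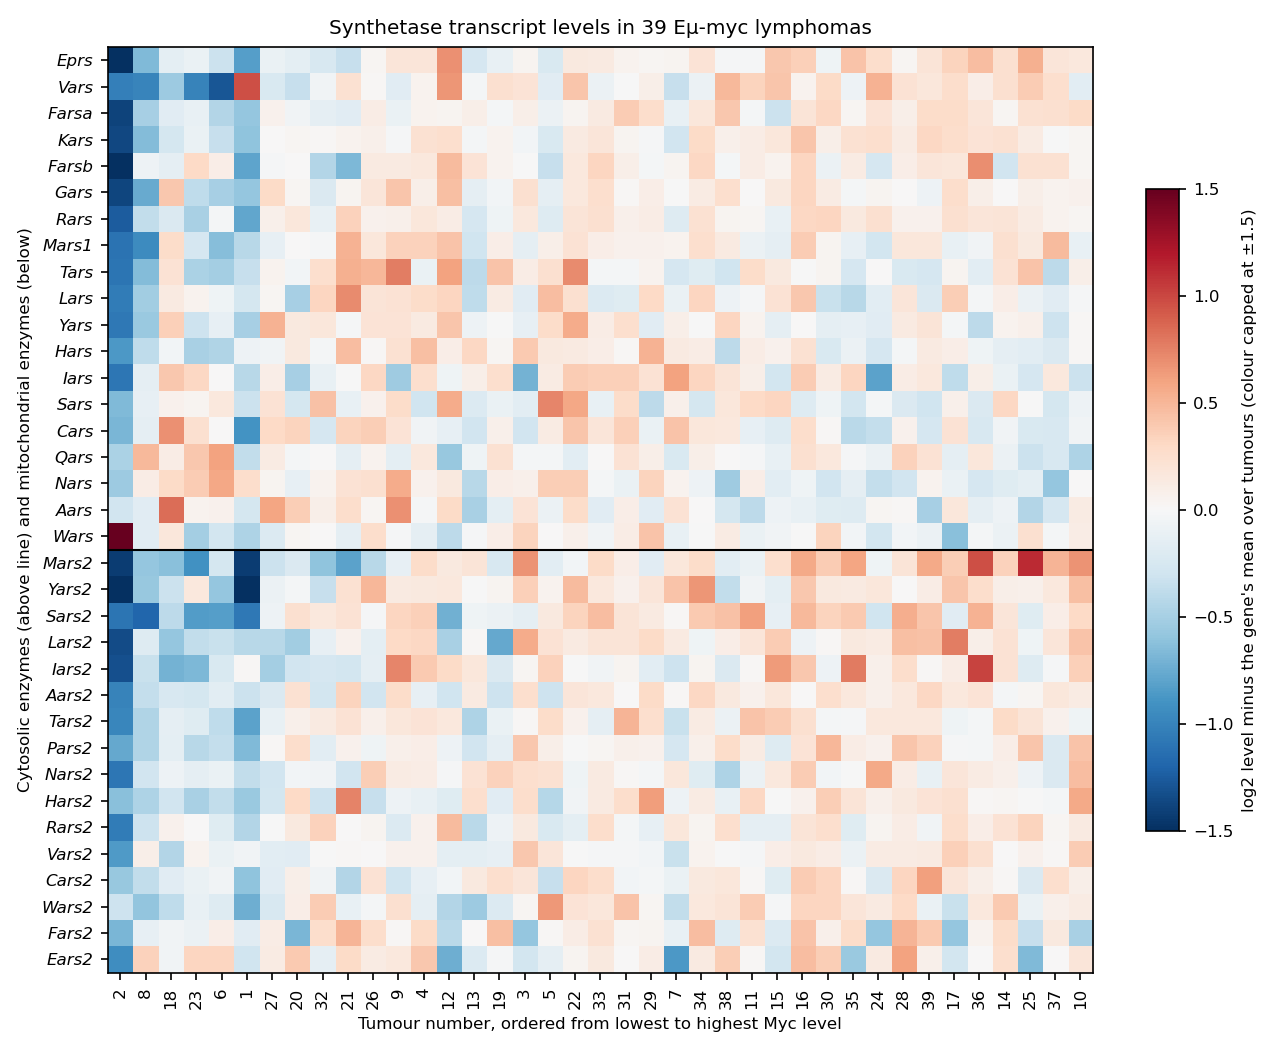
Deviation of each synthetase gene (rows, cytosolic above mitochondrial) from its own mean in each of the 39 tumours (columns, ordered by Myc level), in log2 units on a colour scale. Tumour 2, with the lowest Myc level, holds the lowest value of 13 cytosolic and 11 mitochondrial genes and the highest value of Wars.

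Of the multisynthetase complex, 7 enzymes were measured. Eprs, the fused enzyme for glutamate and proline, ran from 9.54 in tumour 2 to 11.94 in tumour 12, with a median of 11.30 (log2, n = 39), and its next lowest level was 10.44 in tumour 1. Kars, the lysine enzyme, ran from 9.95 in tumour 2 to 11.73 in tumour 16, with a median of 11.37. Rars, the arginine enzyme, ran from 9.85 in tumour 2 to 11.44 in tumour 21, with a median of 11.17. For these genes tumour 2 lay clearly below every other tumour, and tumour 1 or tumour 8 was next. Lars, the leucine enzyme, ran from 9.59 in tumour 2 to 11.34 in tumour 21, with a median of 10.62. Iars, the isoleucine enzyme, ran from 9.84 in tumour 2 to 11.52 in tumour 7, with a median of 11.03. Mars1, the methionine enzyme, ran from 9.65 in tumour 2 to 11.28 in tumour 21, with a median of 10.82, and its next lowest level was 9.82 in tumour 8. These genes also had their lowest levels in tumour 2, by a narrower margin in Iars and Mars1, and their highest ones in tumours 7 and 21. Qars, the glutamine enzyme, was different in that it ran from 10.40 in tumour 12 to 11.57 in tumour 6, with a median of 10.95. Its second highest level, 11.46, was in tumour 8, so 2 tumours low in B cell genes were at the top of its range.

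Among the other cytosolic enzymes Vars, which loads valine, had the largest spread (SD 0.47), from 9.16 in tumour 6 to 11.41 in tumour 1, with a median of 10.49. Its highest level was thus in tumour 1, where most members were low. Farsa and Farsb code for the catalytic and the second subunit of the phenylalanine enzyme. Farsa ran from 8.22 in tumour 2 to 10.02 in tumour 38, with a median of 9.67. Farsb ran from 9.76 in tumour 2 to 12.00 in tumour 36, with a median of 11.38. The genes of both subunits were lowest in tumour 2, then in tumour 1, and correlated across the 39 tumours with r = 0.70, or 0.43 without tumour 2. Gars, the glycine enzyme of both compartments, ran from 10.00 in tumour 2 to 11.83 in tumour 12, with a median of 11.43. Tars, the threonine enzyme, ran from 9.55 in tumour 2 to 11.41 in tumour 9, with a median of 10.64. Yars, the tyrosine enzyme, ran from 7.29 in tumour 2 to 8.92 in tumour 22, with a median of 8.38. In each of these the second lowest tumour was tumour 8, and the highest levels were in tumours 12, 9 and 22. Hars, the histidine enzyme, ran from 10.42 in tumour 2 to 11.80 in tumour 29, with a median of 11.30. Sars, the serine enzyme, ran from 9.78 in tumour 2 to 11.18 in tumour 5, with a median of 10.37. Cars, the cysteine enzyme, ran from 7.08 in tumour 1 to 8.66 in tumour 18, with a median of 7.98, and was second lowest in tumour 2. These genes peaked in different tumours, and no tumour was the highest in more than 1 of them. Aars, the alanine enzyme, ran from 9.43 in tumour 39 to 10.76 in tumour 18, with a median of 9.91, and tumour 2 had rank 5 from the lowest, at 9.63. Nars, the asparagine enzyme, ran from 10.84 in tumour 37 to 12.00 in tumour 6, with a median of 11.46. Aars, Nars and Qars were thus the cytosolic genes, apart from Wars, that lay least far down in tumour 2, at -0.28, -0.59 and -0.46 from the median of the other tumours.

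Wars, the tryptophan enzyme, is known as the synthetase gene that interferon gamma induces, and it was the 1 member with its highest level in tumour 2. It ran from 8.17 in tumour 17 to 10.35 in tumour 2, with a median of 8.78, and the next highest tumour, 29, was at 9.23. All 4 Wars probe sets were highest in tumour 2, at 10.35, 9.07, 8.87 and 7.85, while the highest of the other tumours were at 9.23, 8.23, 8.23 and 7.62. Without tumour 2 the SD of Wars was 0.23 instead of 0.34, below the median of all genes. The T cell score (2.76) and the macrophage score (1.64) of this tumour were also high, and their part in its Wars level was not tested.

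Of the mitochondrial enzymes, those for methionine, tyrosine, serine, isoleucine and leucine varied most. Mars2 (SD 0.57, larger than that of 77.5% of all genes) ran from 4.18 in tumour 1 to 6.73 in tumour 25, with a median of 5.71, and tumour 2 was next at 4.18. It is dim: its mean of 5.61 lay under the median of all genes' means (6.56), which served as a filter on low values. Yars2 (SD 0.51) ran from 6.84 in tumour 2 to 9.55 in tumour 34, with a median of 9.02. Sars2 (SD 0.48) ran from 6.61 in tumour 8 to 8.41 in tumour 11, with a median of 7.94. Tumours 1 and 2 were among the 3 lowest in each of these genes. Iars2 (SD 0.43) ran from 7.84 in tumour 2 to 10.19 in tumour 36, with a median of 9.18, and tumour 18 was second lowest. Lars2 (SD 0.40) ran from 7.78 in tumour 2 to 9.90 in tumour 17, with a median of 9.23, and tumour 19 was second lowest. The remaining mitochondrial genes had SDs from 0.22 for Vars2 to 0.37 for Ears2. Tars2, the threonine enzyme, ran from 8.39 in tumour 2 to 9.88 in tumour 31, with a median of 9.43. Aars2, the alanine enzyme, ran from 6.59 in tumour 2 to 7.92 in tumour 21, with a median of 7.66. Vars2, the valine enzyme, had the smallest spread, from 6.70 in tumour 2 to 7.95 in tumour 3, with a median of 7.55. Rars2, Nars2, Pars2, Hars2 and Ears2 were lowest in tumour 2 as well, Cars2 and Wars2 in tumour 1 and Fars2 in tumour 20. Wars2, the tryptophan enzyme of mitochondria, lay at 6.51 in tumour 2 against a median of 6.87 in the others, opposite to Wars.

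Most synthetase genes were higher in tumours with more Myc, the mitochondrial ones in larger number. Each of 18193 genes was fitted with limma on the Myc level, the slope is the change in log2 level per SD of Myc over the 39 tumours (0.77), and a gene was called where its p, adjusted over all these genes by the Benjamini-Hochberg method, was under 0.05. Of the cytosolic enzymes 12 of 19 were called higher and 1 lower, with a median slope of 0.15, and of the mitochondrial enzymes 14 of 16 were called higher and 0 lower (0 also at an unadjusted p under 0.05), with a median of 0.19. Over all genes 18.7% were called higher and 17.2% lower, and the median slope was 0.011. Without tumour 2 the cytosolic count was 7 higher and 3 lower (median 0.090) and the mitochondrial count 12 higher (median 0.21), against 15.9% and 16.8% of all genes. The 7 tumours 2, 5, 6, 8, 19, 23 and 26 were low in B cell genes or Myc, but tumours 18 (Myc level 10.72) and 32 (B cell score -1.42) were not among them. Without these 7 tumours 3 cytosolic genes were called higher and 2 lower (median 0.0015) and 5 mitochondrial genes higher (median 0.20), against 5.42% and 6.65% of all genes. The macrophage score (8 of 8 markers measured, from -1.37 to 2.28), the T cell score (7 of 8, from -1.47 to 2.76) and the fibroblast score (6 of 6, from -1.10 to 1.27) ran against Myc with r = -0.65, -0.43 and -0.33. With these scores in the fit 6 cytosolic and 5 mitochondrial genes were called higher, against 4.67% of all genes.

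Eprs had the steepest slope of the cytosolic genes, 0.35 ± 0.036 (SE, limma adjusted p = 1.2e-09), and 0.31 ± 0.056 without tumour 2 (adjusted p = 3.8e-05). Farsa followed Myc with 0.28 ± 0.029 (adjusted p = 8.8e-10) and Kars with 0.27 ± 0.029 (adjusted p = 1.9e-09). These 3 genes were also called without the 7 tumours, with slopes of 0.32, 0.23 and 0.19. Vars had a slope of 0.29 ± 0.059, which was 0.39 ± 0.089 without tumour 2 (adjusted p = 0.00082) and 0.13 ± 0.097 without the 7 tumours (adjusted p = 0.44). Gars (0.24), Rars (0.24) and Mars1 (0.22) were called with and without tumour 2. Farsb (0.24), Tars (0.17), Lars (0.15), Yars (0.14) and Hars (0.14) were called over 39 tumours but not without tumour 2, where their slopes were 0.12, 0.090, 0.036, 0.022 and 0.079. Iars, Sars and Cars were not called in either fit.

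Nars, Aars and Qars ran the other way once tumour 2 was left out. Nars had a slope of -0.034 ± 0.046 over all tumours (limma adjusted p = 0.62) and -0.23 ± 0.057 without tumour 2 (adjusted p = 0.0014). Aars had -0.044 ± 0.049 (adjusted p = 0.53) and then -0.19 ± 0.068 (adjusted p = 0.034), and Qars -0.0076 ± 0.041 (adjusted p = 0.91) and then -0.15 ± 0.056 (adjusted p = 0.032). Without the 7 tumours Aars (-0.33, adjusted p = 0.010) and Nars (-0.23, adjusted p = 0.038) were called lower and Qars was at -0.024 (adjusted p = 0.88). In the probe sets used for Aars and Nars high Myc thus went with a lower level, opposite to Eprs, Farsa and Kars in the same tumours. Over all tumours these probe sets had r with Myc of -0.15 (Aars) and -0.12 (Nars). The other probe set of each gene had 0.069 (Aars) and 0.12 (Nars), and its r without tumour 2 is not given here. With the other-cell scores in the fit neither Aars nor Nars was called, with 0.021 ± 0.072 for Nars (limma adjusted p = 0.92) and -0.13 ± 0.076 for Aars (adjusted p = 0.33). Wars was called lower along Myc over all tumours (-0.15 ± 0.050, adjusted p = 0.015), but its slope was 0.093 ± 0.056 without tumour 2 (adjusted p = 0.22), so that its direction rested on 1 tumour. The genes whose windows hold the ATF4 core did not share a direction without tumour 2: Aars had -0.19, Iars -0.011, Yars 0.022, Tars 0.090 and Gars 0.16.

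Mars2 had the steepest slope of all members, 0.44 ± 0.058 (limma adjusted p = 9.3e-08), and the slope was 0.62 ± 0.081 without tumour 2 (adjusted p = 4.6e-07) and 0.72 ± 0.10 without the 7 tumours (adjusted p = 7.3e-05). Across 38 tumours its level followed Myc with r = 0.78. Yars2 had a slope of 0.39 ± 0.055, Sars2 of 0.33 ± 0.058, Lars2 of 0.31 ± 0.043 and Iars2 of 0.30 ± 0.050, and each was called with and without tumour 2. With the mean of all its probe sets Lars2 had 0.15 (adjusted p = 3.0e-06). The next group, Aars2, Tars2, Pars2, Nars2, Hars2, Rars2, Vars2, Cars2 and Wars2, had slopes between 0.14 and 0.21, all called. Of these, Nars2 (0.13, adjusted p = 0.067) and Rars2 (0.11, adjusted p = 0.10) were not called without tumour 2. Fars2 (0.091 ± 0.054, adjusted p = 0.20) and Ears2 (0.078 ± 0.059, adjusted p = 0.33), the mitochondrial enzymes for phenylalanine and glutamate, were not called. The plot of slopes sets the fits with and without tumour 2 side by side, and the cytosolic genes on its left are mostly lower without that tumour, while 8 of the 16 mitochondrial ones are higher.

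**Figure D2:**
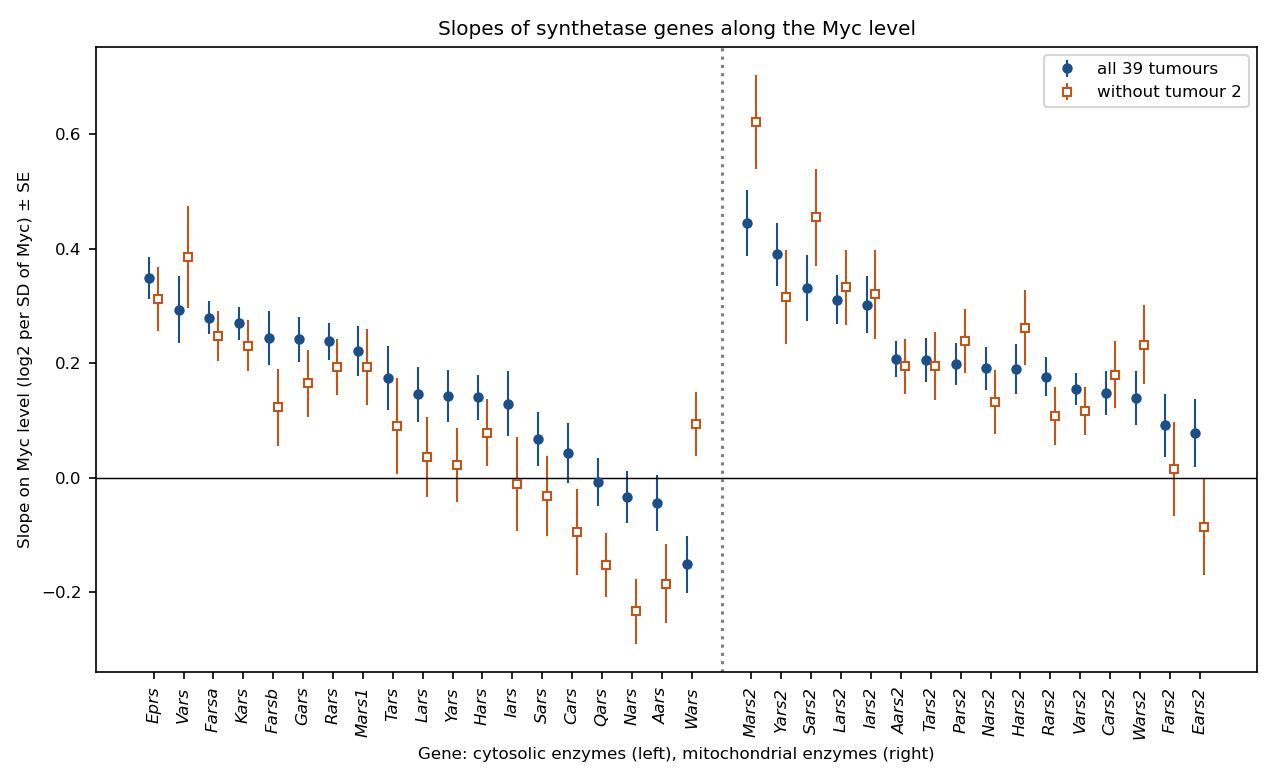
Slope of each synthetase gene along the Myc level (y axis, log2 per SD of Myc, bars are SE), for cytosolic genes on the left and mitochondrial genes on the right, over all 39 tumours (filled) and without tumour 2 (open). Mars2 has the largest slope in both fits, and Wars changes from -0.15 to 0.093.

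The G2/M score, the mean deviation of 19 mitosis genes, rose and fell with Myc (r = 0.85) and is therefore not independent of the Myc result. Of the cytosolic enzymes 14 of 19 and of the mitochondrial enzymes 14 of 16 were called higher along it and 0 lower in either class (also 0 at an unadjusted p under 0.05), against 19.9% of all genes higher and 20.3% lower. Without tumour 2 the counts were 10 higher and 1 lower (Nars) for cytosolic and 11 higher for mitochondrial genes, against 18.6% and 22.1%. Sars2 had a slope of 0.40 ± 0.045 per SD of the score (limma adjusted p = 1.4e-09) and Yars2 of 0.41 ± 0.051 (adjusted p = 1.9e-08). Among the cytosolic genes Eprs (0.32), Gars (0.29), Farsa (0.29) and Kars (0.28) were steepest. With the Myc level in the same fit, 9 cytosolic and 5 mitochondrial genes were still called higher, against 10.0% of all genes, among them Sars2 (0.43 ± 0.085, adjusted p = 0.00039) and Gars (0.30 ± 0.058, adjusted p = 0.00027), while Mars2 was at -0.042 ± 0.11 (adjusted p = 0.83).

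Genes of the mitochondrial ribosome make protein with the transfer RNAs that the mitochondrial synthetases load, and their score was the mean deviation of 76 Mrpl and Mrps genes. All 16 mitochondrial synthetase genes were called higher along it, as were 14 of 19 cytosolic genes, while 1 cytosolic gene (Wars) was called lower, against 19.0% of all genes higher and 16.6% lower. Without tumour 2 the counts were 12 and 7 higher and 0 lower (at an unadjusted p under 0.05, 1 cytosolic gene lower), against 17.9% and 16.3% of all genes. Yars2 had the steepest slope, 0.44 ± 0.043 (limma adjusted p = 9.2e-11), followed by Mars2 (0.39), Sars2 (0.38) and Eprs (0.33). Rars, a cytosolic gene, followed the mitochondrial ribosome score most closely in relation to its error, with 0.28 ± 0.021 (adjusted p = 4.6e-13) and 0.28 ± 0.031 without tumour 2 (adjusted p = 2.7e-08). Kars, whose product serves both compartments, had 0.29 ± 0.024 and 0.26 ± 0.034 in the same fits, and Gars 0.29 ± 0.031 and 0.26 ± 0.044. The score itself followed Myc with r = 0.83, or 0.62 without tumour 2. With Myc in the fit 7 cytosolic and 3 mitochondrial genes were called higher, against 5.01% of all genes, and with the other-cell scores 13 (1 lower) and 6, against 7.09%.

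Along the interferon score, the mean deviation of 27 interferon-induced genes, 9 of 19 cytosolic and 11 of 16 mitochondrial genes were called lower, against 18.2% of all genes, and 1 cytosolic gene, Wars, was called higher, against 14.1%. Without tumour 2 limma called 0 cytosolic genes lower (4 at an unadjusted p under 0.05) and 7 mitochondrial genes lower, against 7.93% of all genes, and 0 members higher (0 at an unadjusted p under 0.05), against 8.23%. Wars had a slope of 0.15 ± 0.050 (limma adjusted p = 0.016) over all tumours and of -0.012 ± 0.050 without tumour 2 (adjusted p = 0.90). In tumour 32, which had the second highest interferon score (1.63), Wars was at 8.81, close to its median. Tumour 32 also had the highest plasmacytoid dendritic cell score (3.84) and a B cell score of -1.42. The markers of that score were Siglech, Bst2, Ccr9, Cox6a2 and Klk1, all but Klk1 highest in tumour 32, and Bst2 is also a gene of the interferon score. Of the mitochondrial genes Lars2 (-0.31 ± 0.043, adjusted p = 1.0e-06) and Aars2 (-0.21 ± 0.031, adjusted p = 4.7e-06) were called lower also without tumour 2, with -0.29 ± 0.055 (adjusted p = 0.00073) and -0.17 ± 0.040 (adjusted p = 0.0037). The interferon score ran against Myc (r = -0.77, or -0.58 without tumour 2), and with the Myc level in the fit limma called 0 members along it (at an unadjusted p under 0.05, 0 cytosolic genes in either direction, 4 mitochondrial genes lower and 1 higher). The share of all genes called in that fit is not given here, so whether members differed from other genes in it is not shown.

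The ATF4 target score was made from 28 amino acid stress genes that are not synthetases, such as Asns and Trib3, and these genes hardly moved together (mean r between them 0.078). Along it 1 cytosolic gene, Nars, was called higher and 1, Vars, lower, and 2 mitochondrial genes, Sars2 and Hars2, were called lower, against 10.0% of all genes higher and 8.21% lower. Nars, which uses the asparagine that Asns makes, had a slope of 0.16 ± 0.039 (limma adjusted p = 0.0032), and 0.16 ± 0.037 without tumour 2 (adjusted p = 0.0016). Tumour 6 had the highest score (0.60) and the highest Nars level (12.00). Vars had a slope of -0.20 ± 0.069 (adjusted p = 0.040), Sars2 of -0.27 ± 0.065 (adjusted p = 0.0035) and Hars2 of -0.17 ± 0.046 (adjusted p = 0.0095). The genes whose windows hold the core were not called: Aars had 0.098 ± 0.047 (adjusted p = 0.14), Gars -0.044, Iars 0.017, Tars 0.024 and Yars 0.019. Without tumour 2 the calls were 1 cytosolic gene higher, 4 lower (Vars, Farsa, Kars and Rars) and 4 mitochondrial genes lower (Sars2, Hars2, Pars2 and Aars2), against 12.3% and 11.8% of all genes. With the Myc level in the fit Nars (0.17 ± 0.041, adjusted p = 0.0085) and Sars (0.14 ± 0.045, adjusted p = 0.049) were called higher and Sars2 (-0.19 ± 0.054, adjusted p = 0.024) lower. The share of all genes called along the ATF4 target score is not given here for that fit or for the fit with other-cell scores. Tumours 6, 8 and 23, which are low in B cell genes and high in macrophage genes (scores 2.28, 1.91 and 1.95), also had high ATF4 target scores (0.60, 0.44 and 0.50), and the part of macrophages in these slopes was not tested beyond the fit with other-cell scores, in which 0 members were called (7 cytosolic genes higher and 1 mitochondrial gene lower at an unadjusted p under 0.05). In that fit the slope of Nars was 0.17 ± 0.048 (limma adjusted p = 0.084), that of Sars2 -0.12 ± 0.062, that of Hars2 -0.083 ± 0.041 and that of Vars -0.060 ± 0.076. Of the genes with a core, Aars then had 0.16 ± 0.055 and Gars 0.12 ± 0.043 (limma adjusted p = 0.18 for each). Tars had 0.16 ± 0.065 (adjusted p = 0.27) and Iars 0.047 ± 0.073 (adjusted p = 0.85), and Yars is not given here for that fit. The slopes of Aars, Gars and Tars were thus higher there than over all tumours without these scores, though not called. Individual tumours behind these slopes are shown in the scatter plots of Mars2, Yars, Wars and Nars.

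**Figure D3:**
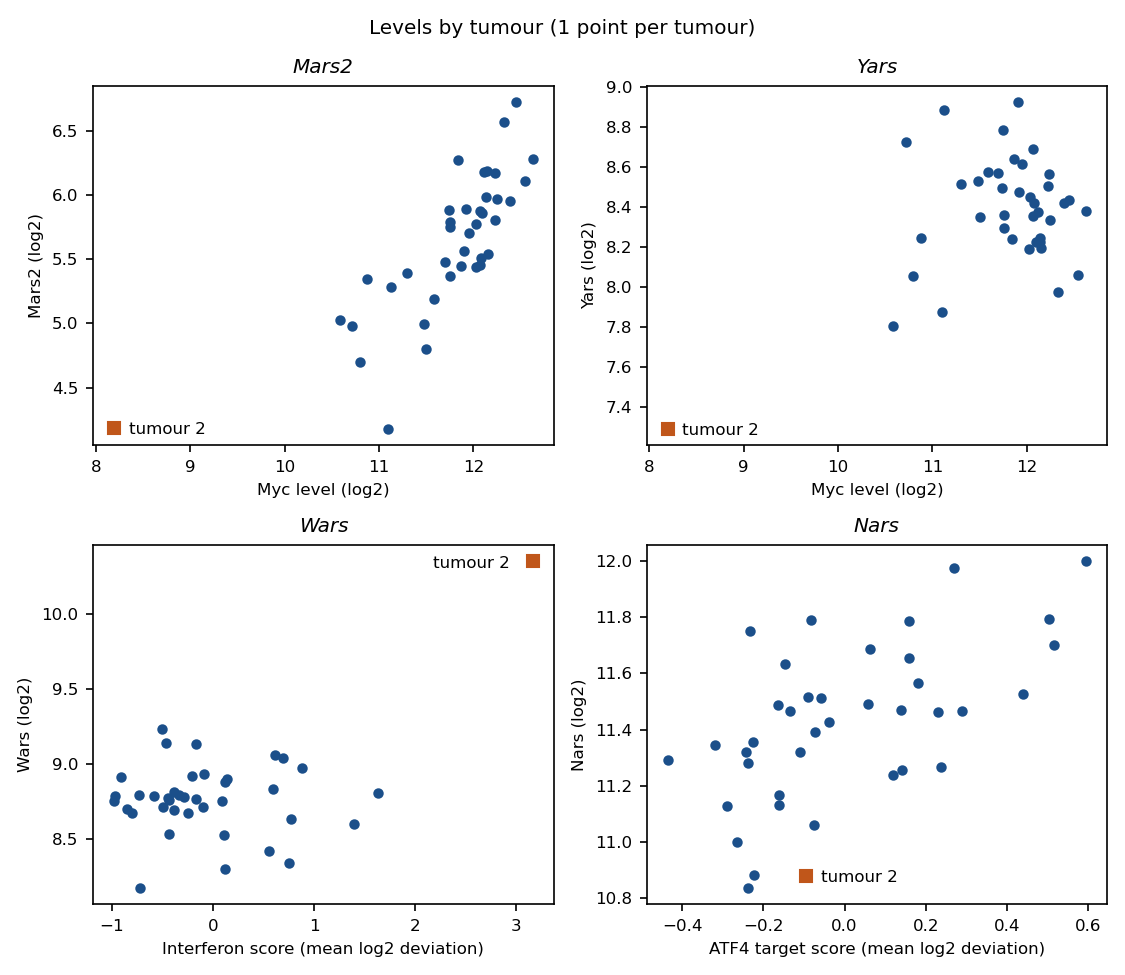
Levels of 4 synthetase genes (log2) by tumour, 1 point each: Mars2 and Yars against the Myc level (log2), Wars against the interferon score and Nars against the ATF4 target score (both mean log2 deviations). The square marks tumour 2, which lies at the low end for Mars2 and Yars, apart from all other tumours for Wars, and within the cloud of tumours for Nars.

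Cytosolic and mitochondrial enzymes were compared as classes by the mean deviation of their genes in each tumour. The cytosolic mean ran from -0.90 in tumour 2 and -0.38 in tumour 1 to 0.27 in tumour 22, and the mitochondrial mean from -1.004 in tumour 2 and -0.60 in tumour 1 to 0.29 in tumour 16. Across the 39 tumours both means correlated with r = 0.78 but with a rank correlation of 0.31, and without tumour 2 r was 0.58 (rho 0.25). The low rank correlation and the lower r without tumour 2 go with the few tumours at the low end, as the scatter plot of the class means shows. Within the cytosolic class the mean r between pairs of genes was 0.31, within the mitochondrial class 0.45 and between the classes 0.32, and without tumour 2 these were 0.19, 0.31 and 0.17. On average a mitochondrial gene thus moved with other mitochondrial genes more than with cytosolic ones in both settings, and this difference was not tested. It did not hold for every gene. Fars2, Rars2, Tars2 and Yars2 had a higher r with the cytosolic mean than with the mean of the other mitochondrial genes in both settings. For residuals after fitting the T cell, macrophage and fibroblast scores the order of the classes turned, with 0.26 within cytosolic, 0.21 within mitochondrial and 0.17 between the classes. The mitochondrial mean followed Myc with r = 0.89 (0.80 without tumour 2) and the cytosolic mean with r = 0.73 (0.38 without it), over tumours whose macrophage and T cell scores ran against Myc. The difference of the means, mitochondrial minus cytosolic, was lowest in tumours 18 (-0.41) and 12 (-0.38) and highest in tumours 10 (0.27) and 28 (0.23), and correlated with Myc with r = 0.50, or 0.63 without tumour 2. Tumour 18 had a Myc level of 10.72 with the highest Aars and Cars levels, and tumour 10 had the highest Myc level, 12.63.

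**Figure D4:**
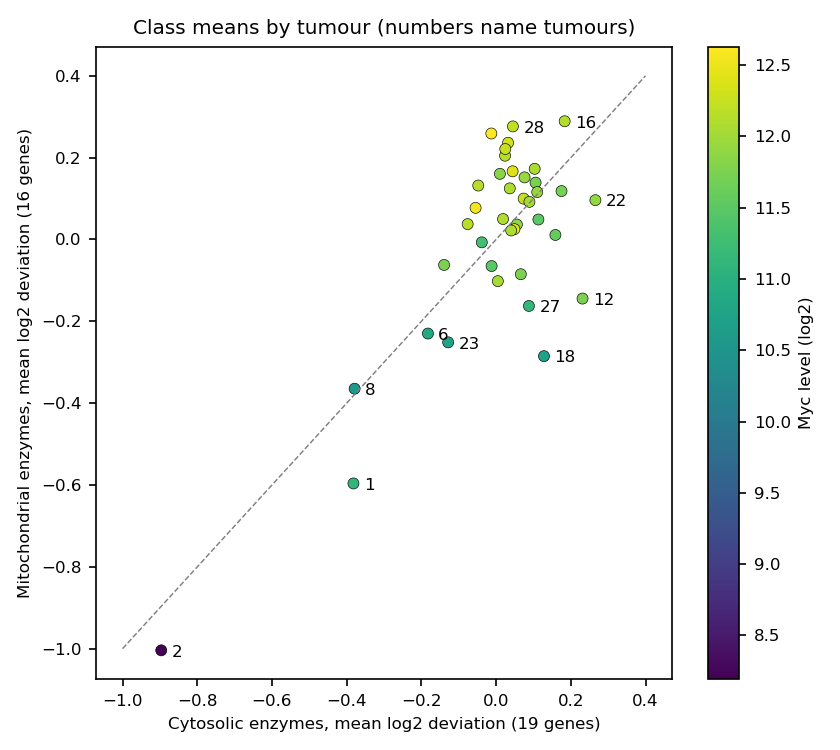
Mean deviation of the 16 mitochondrial genes (y axis) against that of the 19 cytosolic genes (x axis), in log2 units, 1 point per tumour with some tumours numbered. Tumour 2 lies far below the others at -0.90 and -1.004, and tumours 12 and 18 have high cytosolic but low mitochondrial means.

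For 17 pairs of genes a cytosolic and a mitochondrial enzyme load the same amino acid, and their correlations across tumours differed widely. Rars and Rars2 had r = 0.73 over 39 tumours and 0.53 without tumour 2, and 3.57% of all genes had a higher r with Rars (8.27% without tumour 2). Tars and Tars2 had 0.63 and 0.51, and 1.03% of genes were closer to Tars (1.73% without tumour 2). Hars and Hars2, which both lie on chromosome 18, had 0.58 and 0.52, and 3.43% of genes were closer to Hars (2.50% without tumour 2). These were the pairs with the highest values without tumour 2, and each kept r above 0.4 without the 7 tumours. Eprs correlated with Pars2, the mitochondrial proline enzyme, at 0.61 (0.47 without tumour 2), but with Ears2, the glutamate enzyme, at 0.095 (-0.29). Yars and Yars2 had 0.55 with tumour 2, where the rank correlation was 0.022, and 0.28 without it. Wars and Wars2 went the other way, with 0.14 over all tumours and 0.4 without tumour 2, where 3.72% of genes were closer to Wars. Aars and Aars2 (0.0048), Sars and Sars2 (0.076) and Iars and Iars2 (0.10) had r near 0, and negative values without tumour 2 (-0.12, -0.070 and -0.18). The plot of pairs gives all 17 over 39 tumours, without tumour 2 and without the 7 tumours.

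**Figure D5:**
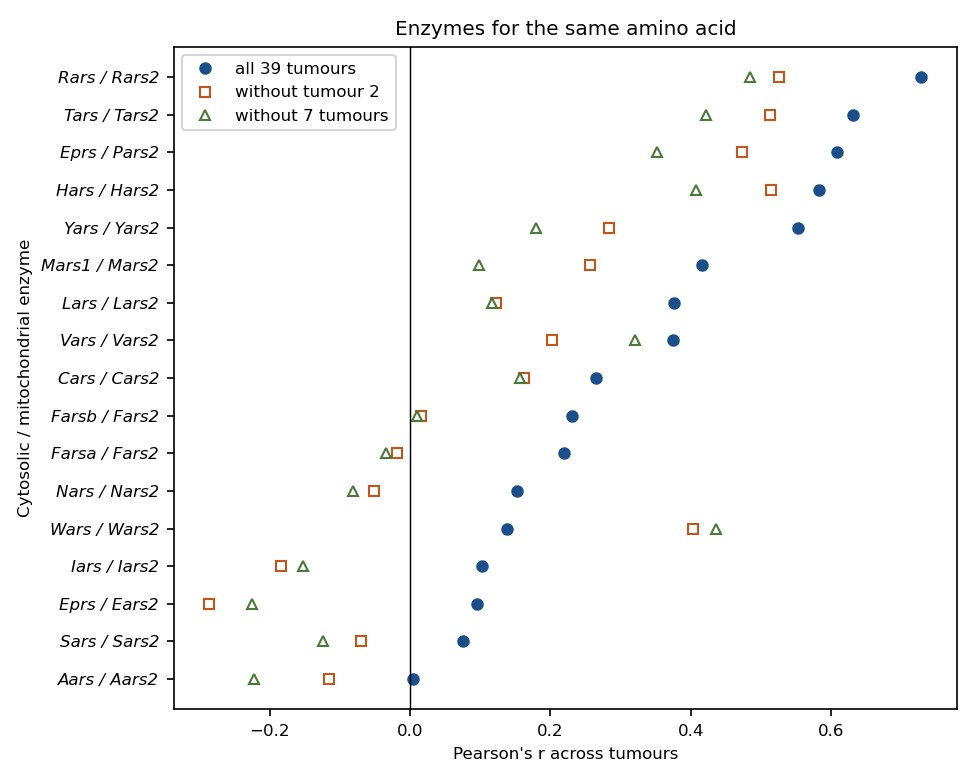
Pearson's r across tumours between the cytosolic and the mitochondrial enzyme for the same amino acid (1 row per pair), over 39 tumours (circles), without tumour 2 (squares) and without 7 tumours (triangles). Rars and Rars2 have the highest r over 39 tumours, 0.73, and the r of Wars and Wars2 is higher without tumour 2.

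The pairs of members with the highest r were Eprs and Kars, with 0.90 (0.81 without tumour 2), and Kars and Rars, with 0.88 (0.78), all of the multisynthetase complex. The next, Farsa and Kars with 0.85, Rars and Yars2 with 0.82 and Eprs and Gars with 0.82, each joined a complex enzyme to one outside it. Along Myc 5 of the 7 complex enzymes were called higher (median slope 0.22) and 7 of the 12 other cytosolic genes (median 0.14), against 18.7% of all genes, and without tumour 2 these were 4 with 1 lower (median 0.19) and 3 with 2 lower (median 0.084), against 15.9% of all genes higher. With the other-cell scores in the fit 3 and 3 were called higher, against 4.67% of all genes. Without the 7 tumours 2 and 1 were called higher, against 5.42% of all genes, and 2 of the other cytosolic genes lower, against 6.65%. Qars, also of the complex, had a correlation with Vars, which is outside it, of -0.44 (-0.62 without tumour 2), the lowest of all pairs of members in the latter. By catalytic fold, 13 of 18 class I and 12 of 16 class II enzymes were called higher along Myc against 18.7% of all genes, with medians of 0.15 and 0.19, Eprs being a fusion of both and left out. These counts were 10 (1 lower) and 8 (2 lower) without tumour 2, against 15.9% of all genes higher and 16.8% lower. They were 7 and 3 with the other-cell scores, against 4.67% of all genes higher. Without the 7 tumours they were 5 and 2 (2 lower), against 5.42% of all genes higher and 6.65% lower. The highest r without tumour 2 after Eprs and Kars was that of Aars2 and Hars2, 0.81.

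Proteins that work with the synthetases were followed as a list of 14 measured genes, of which 12 were called higher along Myc against 18.7% of all genes, and 6 against 15.9% without tumour 2. With the other-cell scores in the fit 3 were called higher (Aimp2, Eef1e1 and Gatc), against 4.67% of all genes. Without the 7 tumours 1 was called higher (Trnt1), against 5.42% of all genes. The scaffold genes of the complex had slopes of 0.34 ± 0.043 for Aimp2, 0.24 ± 0.062 for Eef1e1 and 0.14 ± 0.033 for Aimp1, and without tumour 2 only Aimp2 (0.29 ± 0.066, limma adjusted p = 0.00066) was still called. Qrsl1, a subunit of the amidotransferase that makes glutamine transfer RNA in mitochondria in place of a glutamine enzyme of their own, had 0.35 ± 0.080 and 0.58 ± 0.11 without tumour 2 (adjusted p = 0.00013). The other subunits Gatb (0.15) and Gatc (0.16) were called over all tumours and not without tumour 2. Trnt1, which adds the CCA end to transfer RNAs, had 0.32 ± 0.052 and 0.50 ± 0.071, the editing factor Aarsd1 had 0.31 ± 0.054 and 0.29 ± 0.084, and both were called in both fits. Mtfmt, which formylates the mitochondrial initiator methionine transfer RNA loaded by Mars2, had 0.20 ± 0.049 and 0.31 ± 0.072 without tumour 2 (adjusted p = 0.00097), higher in both, as Mars2 was. Prorsd1 and Pstk were the partners not called. Along the interferon score 13 of the 14 partners were called lower against 18.2% of all genes, and 3 against 7.93% without tumour 2. With Myc in the fit 1 was called lower (Dtd1), and with the other-cell scores limma called 0 (5 at an unadjusted p under 0.05). The share of all genes called in these fits is not given here, so these counts are not set against it. Of 5 sensors of translation and amino acid stress, limma called 0 along Myc in either direction (1 at an unadjusted p under 0.05), and Atf4 itself had a slope of 0.073 ± 0.040 (adjusted p = 0.16). Eif2ak2, the interferon-induced kinase PKR, was called higher along the interferon score (0.18 ± 0.065, limma adjusted p = 0.028), but not without tumour 2 (0.098 ± 0.083, adjusted p = 0.44). Eif2ak4, the kinase GCN2 that senses uncharged transfer RNA, was called lower with (-0.24 ± 0.057, limma adjusted p = 0.0016) and without tumour 2 (-0.24 ± 0.075, adjusted p = 0.028).

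Some members moved with the chromosome on which they lie, measured as r with the median deviation of that chromosome's other genes. Fars2 and Iars, both on chromosome 13, had r = 0.67 and 0.58 over 39 tumours and 0.68 and 0.61 without tumour 2. The median deviation of chromosome 13 was between -0.30 and 0.11 (log2). Sars on chromosome 3 had r = 0.67 and Qars on chromosome 9 had 0.59, with 0.63 and 0.54 without tumour 2. Of all genes, 1.12% had a higher r with their chromosome than Fars2, 1.33% than Sars, 3.62% than Qars and 4.05% than Iars. The other cytosolic and mitochondrial genes had values from -0.13 for Aars to 0.48 for Yars2. Fars2 and Iars were also not called along Myc, and copy number was not measured here.

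The genes outside these lists most like the class means differed between the classes. The mitochondrial mean was followed most closely by Nat10 (r = 0.96 over 39 tumours), Grwd1 (0.95), Timm50 (0.94), Fbl (0.94), Polr1b (0.93), Prmt7 (0.93), Timm9 (0.92) and Qtrt1 (0.92), and without tumour 2 Nat10 (0.93) and Grwd1 (0.92) were again the highest. Fbl codes for the nucleolar methyltransferase fibrillarin, Polr1b for a subunit of RNA polymerase I and Timm50 for a part of the mitochondrial import machinery. The lowest correlations of the mitochondrial mean over 39 tumours were with Ccrl2 (-0.89), Cd274 (-0.88), Cstb (-0.87) and Tapbp (-0.86), of which Cd274 codes for the immune checkpoint ligand PD-L1 and Tapbp for tapasin of antigen presentation. Without tumour 2 they were with Cd274 (-0.84), Cstb (-0.83), St8sia6 (-0.83) and Laptm5 (-0.82). The cytosolic mean was followed by Hspd1 (0.89), Emg1 (0.88), Nup155 (0.88), Ranbp1 (0.88), Rad51ap1 (0.88), Mir1949 (0.88), Cenpi (0.87) and Nup205 (0.87), and its lowest values were with Phf1 (-0.84), Gtpbp2 (-0.84), Dcstamp (-0.82) and Gpr33 (-0.82). Without tumour 2 its closest genes were the nucleoporin gene Nup155 (0.82), Psme3 (0.79), Emg1 (0.77) and Bcat1 (0.77), the last a cytosolic enzyme that breaks down branched-chain amino acids. The lowest values of the cytosolic mean were then with other genes than over 39 tumours: Aspg (-0.78), Rims3 (-0.75), Mogat2 (-0.73) and Pgbd5 (-0.73).

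The 35 members had 72 probe sets that name 1 gene, and 23 members had more than 1. In most of these the probe sets rose and fell together, as for Iars (r = 0.95), Sars (0.94) and Iars2 (0.91). In 4 members the lowest r between probe sets was under 0.2: Qars (-0.32), Lars2 (-0.021), Farsb (0.0041) and Cars2 (0.19). The probe set used for Qars had an r of 0.75 with at least 1 other, and those of Farsb, Cars2 and Lars2 had 0.92, 0.85 and 0.60. For 12 members 1 probe set is the whole measurement, among them Vars, Sars2, Kars and Rars.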

How the data were processed

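RNA of 39 lymphomas was measured on expression arrays with 45101 probe sets. The values are log2 expression levels that the authors deposited; the tools named per the submitters' processing notes are RMA and affy, with no version given in these sources. Array medians were 5.61 to 5.78 and r between arrays 0.889 to 0.991, and the number of arrays limits the precision. Of the probe sets, 34958 name 1 gene, 932 several and 9211 are not listed in the annotation used; 34754 were matched to RefSeq by Entrez ID. The probe set with the highest mean stood for each of 18194 genes, so a gene of several probe sets rests on its brightest. Slopes came from limma 3.58.1 (lmFit, eBayes with trend, R 4.3.3) on 1 score at a time, without other covariates, and every slope is per SD of the score over all 39 tumours. No fit included the genes that make up its own score, and p-values were adjusted over all remaining genes by the Benjamini-Hochberg method. Tables were made with Python 3.11.15, pandas 2.3.3 and numpy 2.4.6. The fit was also run on simulated data with the real scores and noise drawn for each gene on its own. Of simulated slopes of 0.1, 10.4% to 20.9% were called, and of those of 0.4, 80.3% to 93.9%, depending on the score. Of the called genes 3.09% to 6.96% were false. Real genes are correlated, so these rates may not hold for the data. The members and lists were chosen with earlier results of these data known. Not every gene that meets the naming rule is reported here. Named were all members, Myc, the partners and sensors listed, and the 8 genes with the highest and the 4 with the lowest r to each class mean, passing over unnamed transcripts. Cd79a, Cd79b, Pax5, Vpreb3, Cd22 and the plasmacytoid dendritic cell genes were named as markers. Alternatives changed the probe set, a filter on dim genes, the tumours, the covariates, the scale of the score and the eBayes prior; leaving out tumour 2 alone was chosen after seeing the data.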

Additional observations from a re-analysis of the deposited data

How the results depend on the processing

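Alternatives are named in the order: without tumours 2, 6 and 8; without the 7 tumours; without the 2 tumours farthest from the median of the score; with the T cell, macrophage and fibroblast scores in the fit; with the Myc level in the fit; on normal scores; and without tumour 2 alone. The share of all genes called stands with the results above, for some of these settings only. The counts below show how calls moved between settings, and not how members compare with all genes. Along Myc the count of cytosolic genes called higher, 12, was 4, 3, 5 and 6 under the first 4 and 7 without tumour 2. The mitochondrial count, 14, was 9 without tumours 2, 6 and 8, 5 without the 7 and 5 with the other-cell scores. Along the G2/M score the cytosolic count, 14, was 6, 4 and 7 under the first 3, 9 with Myc and 9 on normal scores, and the mitochondrial count, 14, was 4 with the other-cell scores and 5 with Myc. Along the mitochondrial ribosome score the cytosolic count, 14, was 6, 7 and 8 under the first 3, 7 with Myc and 7 without tumour 2, and the mitochondrial count, 16, was 10 without tumours 2, 6 and 8, 10 without the 2 farthest, 6 with the other-cell scores and 3 with Myc. Along the interferon score limma called 0 cytosolic genes lower, instead of 9, under the first 5 and without tumour 2 (at an unadjusted p under 0.05: 0, 0, 2, 4, 0 and 4), and 5 on normal scores. The mitochondrial count, 11, was 4, 5 and 6 under the first 3, 0 with the other-cell scores and 0 with Myc (limma, 5 and 4 at an unadjusted p under 0.05), and 7 without tumour 2. Along the ATF4 target score the cytosolic count in either direction, 2, was 1, 0, 1 and 0 under the first 4, 1 on normal scores and 5 without tumour 2, where the zeros in limma had 5 and 7 genes higher at an unadjusted p under 0.05. The mitochondrial count called lower, 2, was 0 without the 7 tumours and 0 with the other-cell scores (limma, 4 and 1 at an unadjusted p under 0.05), 1 with Myc and 4 without tumour 2. The median SD of cytosolic genes was 0.265 without tumours 2, 6 and 8 and 0.258 without the 7. The r between class means was 0.577 without tumour 2, 0.458 without tumours 2, 6 and 8, 0.441 without the 7 and 0.620 for residuals after fitting the other-cell scores. The mean r within cytosolic genes was 0.156 and 0.160 under the first 2, and 0.259 for the residuals, and within mitochondrial genes 0.281 and 0.301 under these, 0.308 without tumour 2 and 0.208 for the residuals. Of the slopes called along Myc, sign changes were seen for Hars (-0.0013 and -0.082 under the first 2), Tars (-0.032 and -0.090), Lars (-0.037, -0.033 and -0.022 under the first 3), Yars (-0.068, -0.13 and -0.044), Wars (0.083, 0.048 and 0.096, and 0.093 without tumour 2) and Hars2 (-0.0092 with the other-cell scores). Slopes not called along Myc also changed sign in some settings, in Cars, Iars, Sars, Ears2, Nars and Qars. Along the interferon score Wars changed sign (-0.0032, -0.011 and -0.020 under the first 3, -0.012 without tumour 2), as did Mars2 with Myc (0.061), and along the G2/M score Mars2 did with Myc (-0.042). The cause of these changes was not tested. Calls of single genes were compared between settings for all 35 members along Myc. Along the other scores only chosen members were compared: 6 for ATF4 targets, 5 for interferon, and 4 each for G2/M and the mitochondrial ribosome. Among these the eBayes prior without trend changed no call or direction. The mean of all probe sets changed 1 call, that of Wars along Myc (-0.095, limma adjusted p = 0.10). With the filter on dim genes 1 gene not called before was called along Myc. The arrays give no count behind a value, so dim probe sets such as that of Mars2 are the least certain.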
